A study of Mus musculus with 8 samples.

Results

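The LIM-homeodomain transcription factor genes Lmx1a and Lmx1b and the non-coding transcript C130021I20Rik were followed across midbrain dopaminergic tissue and neurons of the mouse embryo. They were selected on earlier results of these arrays, which for Lmx1b and C130021I20Rik means on the difference between the mdDA (mesodiencephalic dopaminergic) domain and the lateral domain. Values of that contrast are therefore given for them as a description with no test. The annotation of the array paired 2 of the 3 genes with a probe set, and 3 of 35556 probe sets belonged to them. Lmx1b had 1 probe set (10481835) and C130021I20Rik had 2 (10471563 and 10471567). For Lmx1a 0 probe sets carried the symbol in the annotation used here, whether alone or beside other symbols, so the level of Lmx1a was not analysed here.

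RNA of 4 groups was hybridised to Affymetrix Mouse Gene 1.0 ST arrays, with 2 arrays per group. Both domains, mdDA and lateral, were laser-cut from sections of E12.5 BAT-gal embryos (strain B6D2F1, mixed), pooled over 5 embryos. BAT-gal is a transgene in which LEF1/TCF sites drive lacZ, so that nuclear b-GAL marks cells responding to canonical WNT signaling. The mdDA domain was outlined as b-GAL+ and PITX3+ tissue and the lateral domain as b-GAL-/PITX3- tissue at the alar-basal boundary. The sorted neurons were GFP+ cells from the ventral midbrain of Pitx3GFP/+ embryos (C57BL/6 x 129/Ola, mixed) at E13.5 and E14.5, where GFP replaces 1 copy of Pitx3. Stage, strain, fixation and isolation all differed between the dissected and the sorted samples. The study states that sorting and arrays of the neurons were reported in earlier work, so the experiment may have differed as well. None of these can be told apart from that comparison. The 2 arrays of every group, neurons included, are labelled technical replicates, and those of a domain came from 1 tissue pool. Nothing names separate embryos or sorts for the neurons. SDs, SEs and p-values here therefore measure the spread between arrays only.

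LMX1A and LMX1B bind DNA through a homeodomain and bind partner proteins such as LDB1 through paired LIM domains. In the ventral midbrain they act with WNT1, OTX2 and the FOXA factors in the specification of mdDA progenitors, and Lmx1b remains active in mdDA neurons. Lmx1b is also known from serotonergic neurons of the hindbrain, and Lmx1a from the roof plate and the subthalamic lineage.

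Lmx1b and C130021I20Rik are annotated as neighbours on mouse chromosome 2, on opposite strands and transcribed away from each other. In RefSeq (GRCm38.p6) 94 bases separate the annotated start of C130021I20Rik from the Lmx1b start used for the promoter window. Windows running from 250 bases before to 50 bases after each start shared 194 of 300 bases. The full Lmx1b gene span reached 16 bases into C130021I20Rik. Where the probes lie was not given in the sources used here, so whether any probe falls in that overlap is unknown. The sequence before the Lmx1b start used for the window is shown because its last 94 bases lie between that start and the C130021I20Rik start. The full Lmx1b gene span covers these 94 bases as well, and the other bases lie within the C130021I20Rik gene. It covers chr2:33641099-33641348 on the minus strand, is written 5′ to 3′ towards Lmx1b, and has in capitals the 94 bases between the starts.
Lmx1b upstream: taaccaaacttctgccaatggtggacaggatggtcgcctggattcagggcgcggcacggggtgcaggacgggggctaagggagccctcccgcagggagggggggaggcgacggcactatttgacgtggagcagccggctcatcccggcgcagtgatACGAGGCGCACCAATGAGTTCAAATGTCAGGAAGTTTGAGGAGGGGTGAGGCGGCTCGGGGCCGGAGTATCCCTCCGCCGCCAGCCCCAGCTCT

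GC content was 65.7% in the Lmx1b window and 73.3% in that of C130021I20Rik, against a median of 52.7% over 32851 annotated promoters of the same length. The windows held 24 and 34 CpG dinucleotides, and the median promoter held 7. A CCAAT box (CCAAT, either strand) was found between the starts, its first base 84 bases before the Lmx1b start, and a second one 236 bases before it. Such a box occurs in 37.4% of all promoters. The windows held no TATA box (TATAAA, in 13.6% of promoters), no CTTTGA (in 16.0%) and no homeodomain core (TAATTA, in 5.29%) on either strand. CTTTGA is a single form of the LEF1/TCF site, and other forms such as CTTTGT were not searched. These matches describe the letters of the windows and not sites in use.

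Both genes were lowest in the lateral domain, intermediate in the mdDA domain and highest in the sorted neurons. Levels are log2 values made with RMA, on which a step of 1 doubles the signal, and levels of different probe sets are not set against each other. The Lmx1b level was 7.52 and 7.51 in the mdDA domain, and 6.01 and 5.97 in lateral tissue. In sorted neurons its level was 8.16 and 8.25 at E13.5 and 7.88 and 8.24 at E14.5. Every mdDA array lay above both lateral arrays and below all 4 arrays of sorted neurons, whereas the arrays of the E13.5 and E14.5 neurons overlapped.

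C130021I20Rik showed the same order of groups with both of its probe sets. Probe set 10471567 read 9.35 and 9.28 in the mdDA domain and 4.19 and 4.25 in the lateral domain. It read 10.06 and 10.10 in E13.5 neurons and 9.61 and 9.56 in E14.5 neurons. No group overlapped with another on this probe set, and its lateral values lay below the median of their arrays, which was 4.60. No detection level was set, so it remains unknown whether the lateral values differ from background.

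Probe set 10471563 of the same transcript had levels of 6.98 and 7.10 in the mdDA domain. In the lateral domain its levels were 5.29 and 4.32, a spread of 0.68 (SD, n = 2) that was the widest of any group of the 3 probe sets. Its levels were 8.03 and 8.12 at E13.5 and 7.69 and 7.75 at E14.5. On this probe set, too, no group overlapped with another.

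**Figure D1:**
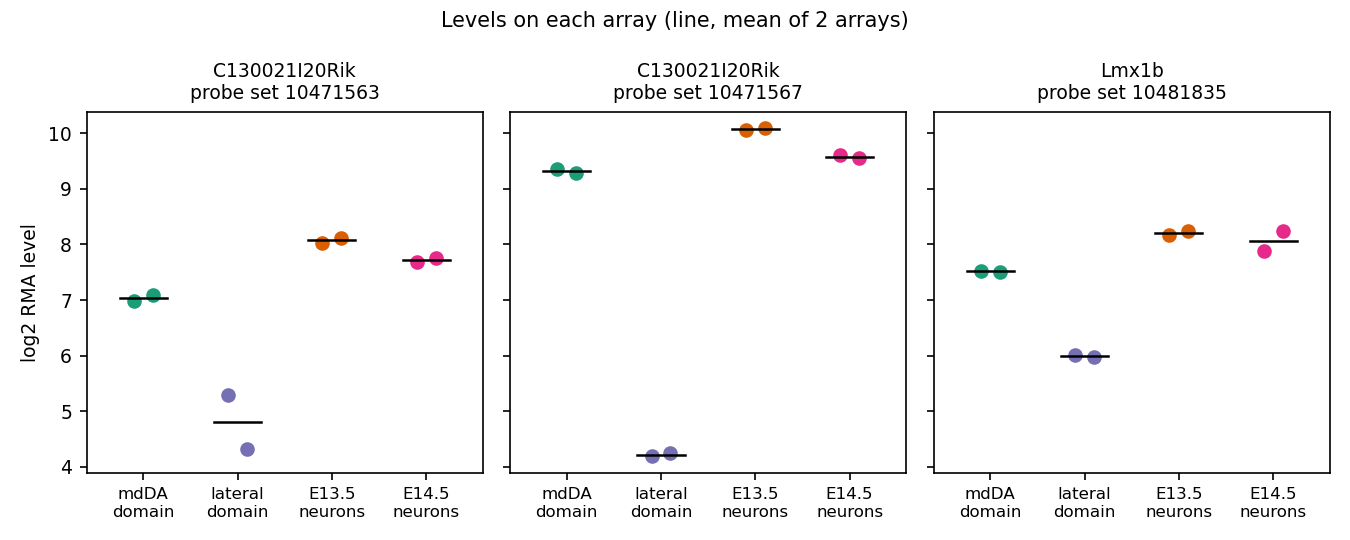
Log2 RMA level (y axis) of the 3 probe sets on each of the 8 arrays, by group (x axis), with points for arrays and a line for the mean of 2 arrays. The lateral arrays are lowest in every panel, and only the E13.5 and E14.5 arrays of Lmx1b overlap.

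Between the domains the differences were of unequal size. Lmx1b stood 1.53 higher in mdDA than in lateral tissue on the log2 scale, or 2.88-fold. C130021I20Rik was 5.10 higher with probe set 10471567, a 34.2-fold difference, and 2.24 higher with probe set 10471563, a 4.71-fold difference. If the lateral level of probe set 10471567 is background, its fold is a lower bound. Ordered by this difference among all 35556 probe sets, 10471567 held rank 1, 10471563 rank 63 and the Lmx1b probe set rank 199. The next named probe sets after rank 1 were those of Cartpt, a neuropeptide gene, at 4.63 and of Kcnk9, a potassium channel gene, at 4.55. The median difference over all probe sets was -0.01. Of all probe sets 1.52% were called higher and 1.1% lower in the mdDA domain by the paired limma test at a false discovery rate below 10%, and nothing is read from this for genes that were chosen on the contrast. In bulk tissue, fewer cells of a type and less RNA per cell cannot be told apart.

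**Figure D2:**
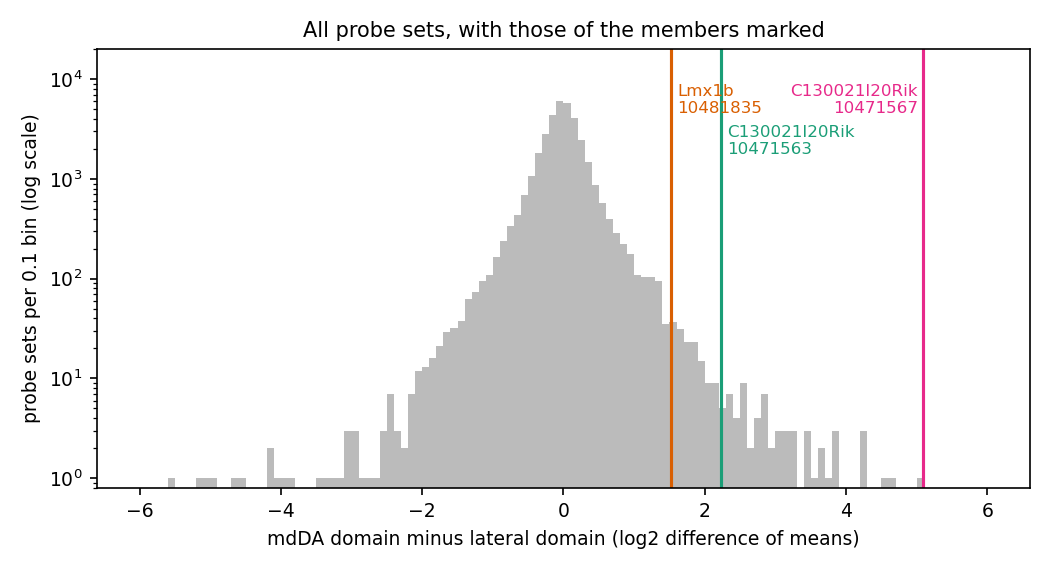
Number of probe sets (y axis, log scale) by their log2 difference between the mdDA domain and the lateral domain (x axis, bins of 0.1) over all 35556 probe sets. Vertical lines mark Lmx1b at 1.53 and C130021I20Rik at 2.24 and 5.10, the last at the upper end of the distribution.

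The second comparison asked how the levels in sorted neurons stood to those in the mdDA domain. All 3 probe sets were higher in the sorted neurons, taken as the mean of both stages. Lmx1b was higher by 0.61 (SE 0.13, 95% interval 0.304 to 0.925, adjusted p = 0.0320), or 1.53-fold. C130021I20Rik was higher by 0.51 with probe set 10471567 (SE 0.10, 95% interval 0.282 to 0.746, adjusted p = 0.0238). With probe set 10471563 it was higher by 0.86 (SE 0.25, 95% interval 0.251 to 1.46, adjusted p = 0.0818). These are limma tests over all 8 arrays, adjusted over all probe sets. The mdDA arrays also entered the contrast on which the genes were chosen. Over all probe sets 8.53% were called higher and 9.84% lower in sorted neurons, so calls were common here. Centring each array on its median moved the median difference of all probe sets from -0.08 to 0.12 and the share of calls that were higher from 46.4% to 75.8%. On that scale the member differences were 0.81, 0.71 and 1.05. Repeated quantile normalization ended the call of Lmx1b (0.41, adjusted p = 0.124) and of probe set 10471563 (0.67, adjusted p = 0.180) but not that of 10471567 (0.34, adjusted p = 0.0928). With the replicate number as a block, probe set 10471563 did not pass the test (adjusted p = 0.108).

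Each mdDA array decided these calls. Without mdDA replicate 1 the adjusted p was 0.154 for Lmx1b, 0.107 for probe set 10471567 and 0.313 for probe set 10471563, and without mdDA replicate 2 it was 0.138, 0.120 and 0.221. The differences themselves stayed between 0.48 and 0.92. Probe set 10471563 also lost its call without any single array of the sorted neurons, with adjusted p from 0.128 to 0.154.

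Taken by stage, the difference to the mdDA domain was larger at E13.5 than at E14.5 in each probe set. C130021I20Rik stood 0.76 above the mdDA domain at E13.5 and 0.27 above it at E14.5 with probe set 10471567, and 1.04 and 0.68 above it with probe set 10471563. For Lmx1b these differences were 0.69 and 0.54. The direct comparison of E14.5 with E13.5 neurons, on arrays that did not enter the choice of genes, called none of them. C130021I20Rik was lower at E14.5 by 0.50 (SE 0.13, 95% interval of the difference -0.843 to -0.152, adjusted p = 0.744) with probe set 10471567. With probe set 10471563 it was lower by 0.36 (SE 0.13, interval -0.713 to 0.00233, adjusted p = 0.823), and on neither probe set did the stages overlap. The Lmx1b difference was -0.15 (SE 0.18, interval -0.640 to 0.344, adjusted p = 0.931), and without E14.5 replicate 1 it turned to 0.03. Of all probe sets 0% were called between the stages by limma, while 2156 had an unadjusted p below 0.05. The fit over all 8 arrays called 9 probe sets higher and 11 lower.

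Against the lateral domain the sorted neurons had the widest differences of the genes, given as a description. Probe set 10471567 of C130021I20Rik was 5.86 higher at E13.5 and 5.36 higher at E14.5, or 58.0-fold and 41.1-fold, with the same limit on the lateral level. Probe set 10471563 was 3.27 and 2.92 higher, and Lmx1b 2.22 and 2.07 higher.

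The markers of the labelled tissue were checked next to these levels. Between the domains, 5 of 6 mdDA neuron markers were higher and 0 lower on the mdDA side (median difference 3.43). Ddc, which encodes the last enzyme of dopamine synthesis, differed by 4.21 (adjusted p = 0.0224), and Th, the rate-limiting enzyme, by 3.86 (adjusted p = 0.0224). Pitx3, used to outline the domain, differed by 0.67 (adjusted p = 0.228) and did not pass the test. In sorted neurons 4 of the 6 markers were higher than in the mdDA domain and 0 lower (8.53% and 9.84% over all probe sets). Slc6a3, the dopamine transporter gene, was higher by 2.37 (adjusted p = 0.00109) and Th by 1.36 (adjusted p = 0.00649). Between the domains, leaving out either mdDA array left Ddc as the one called marker of the 6, and leaving out any dissected array ended the call of Slc6a3.

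Markers of other cell types moved as well. All 4 GABAergic markers were lower in mdDA than in lateral tissue (median -3.51), led by Tal2 at -4.97 and Gata3 at -3.98. The call of Gad1 ended without any single dissected array and that of Gad2 without either mdDA array. In sorted neurons 3 of the 4 were higher than in the mdDA domain and 0 lower (8.53% and 9.84% over all probe sets). Gad1 (0.67, adjusted p = 0.0921) lost its call with trend and robust limma settings. It also lost it without any single array other than mdDA replicate 1. Gad2, an enzyme of GABA synthesis, rose by 2.53 (adjusted p = 0.000988) to levels of 7.56 to 7.97, against 8.23 and 8.45 in the lateral domain. Tal2 was at 3.21 to 4.50 in sorted neurons. The GABAergic list, as its mean per array, ranged from 4.41 to 4.74 in the mdDA domain, from 8.26 to 8.34 in the lateral domain, from 5.75 to 5.76 at E13.5 and from 5.25 to 5.44 at E14.5. The immediate early genes Fos and Fosb, looked up after their values were seen, differed by 4.35 and 4.09 between sorted neurons and the mdDA domain. The part of these in the higher levels of Lmx1b and C130021I20Rik in sorted neurons was not tested.

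Markers of other tissues in which LMX1 genes are active were examined too. Of 4 serotonergic markers 3 were measured, and none was called in either comparison with the mdDA domain. Tph2, the serotonin-producing enzyme gene, lay between 2.86 and 3.18 on all 8 arrays, and the 3 genes together did not exceed 4.15. None of the 6 roof plate and choroid plexus markers was called between the domains. In sorted neurons 0 were higher and 2 lower (8.53% and 9.84% over all probe sets). These were Zic4 at -0.39 (adjusted p = 0.0840) and Bmp6 at -0.34 (adjusted p = 0.0764). Leaving out any single array ended both of these calls, as did median centring. Of the 3 measured subthalamic markers, Barhl2 (-2.87, adjusted p = 0.0241) and Barhl1 (-1.60, adjusted p = 0.0739) were lower in mdDA than in lateral tissue, and 0 of 3 were called in sorted neurons. The call of Barhl2 ended without either mdDA array and that of Barhl1 without any dissected array. None of the 8 mesenchyme and meninges markers was called in either comparison.

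The other LIM-homeodomain genes did not share a direction between the domains. Lmx1b was chosen on this difference, so how it stands to its family is a description only. Of 10 measured genes 2 were higher and 2 lower in mdDA than in lateral tissue, with a median difference of -0.27. Lhx2 and Lhx9, which mark dorsal and diencephalic territories of the brain, had some of the most negative differences of all probe sets. On the mdDA arrays Lhx2 read 4.21 and 5.05, on the lateral arrays 9.75 and 9.84, which is a difference of -5.17 (SE 0.23, adjusted p = 0.0224). Lhx9 differed by -4.66 (SE 0.15, adjusted p = 0.0224). Isl1, a motor and sensory neuron factor, was higher by 1.52 (adjusted p = 0.0507) and Lhx4 by 1.17 (adjusted p = 0.0739). Leaving out any of the 4 dissected arrays ended the calls of Isl1 and Lhx4 but not those of Lhx2 and Lhx9.

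In sorted neurons 2 of these 10 were higher and 4 lower than in the mdDA domain, against 8.53% and 9.84% over all probe sets. Their median difference was -0.01. Lhx1, a factor of early postmitotic neurons, fell by 3.02 (SE 0.20, adjusted p = 0.00159), from 7.50 and 7.76 in the mdDA domain to between 4.07 and 5.36. Isl1 fell by 1.87 (adjusted p = 0.00631) and Lhx5 by 1.34 (adjusted p = 0.0101). Lhx2 was higher by 2.35 (SE 0.26, adjusted p = 0.00640), at 6.76 to 7.37 in the sorted neurons. Of the genes higher in the mdDA domain, Isl1 and Lhx4 were both lower in sorted neurons, and Lmx1b was not. Both comparisons use the same mdDA arrays, and Lmx1b was chosen on the first, so this is a description only. The lower call of Lhx4 ended without mdDA replicate 2. Between the stages none of the 10 was called, although Lhx9 read 6.13 and 6.16 at E13.5 and 4.78 and 4.63 at E14.5 (adjusted p = 0.667).

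**Figure D3:**
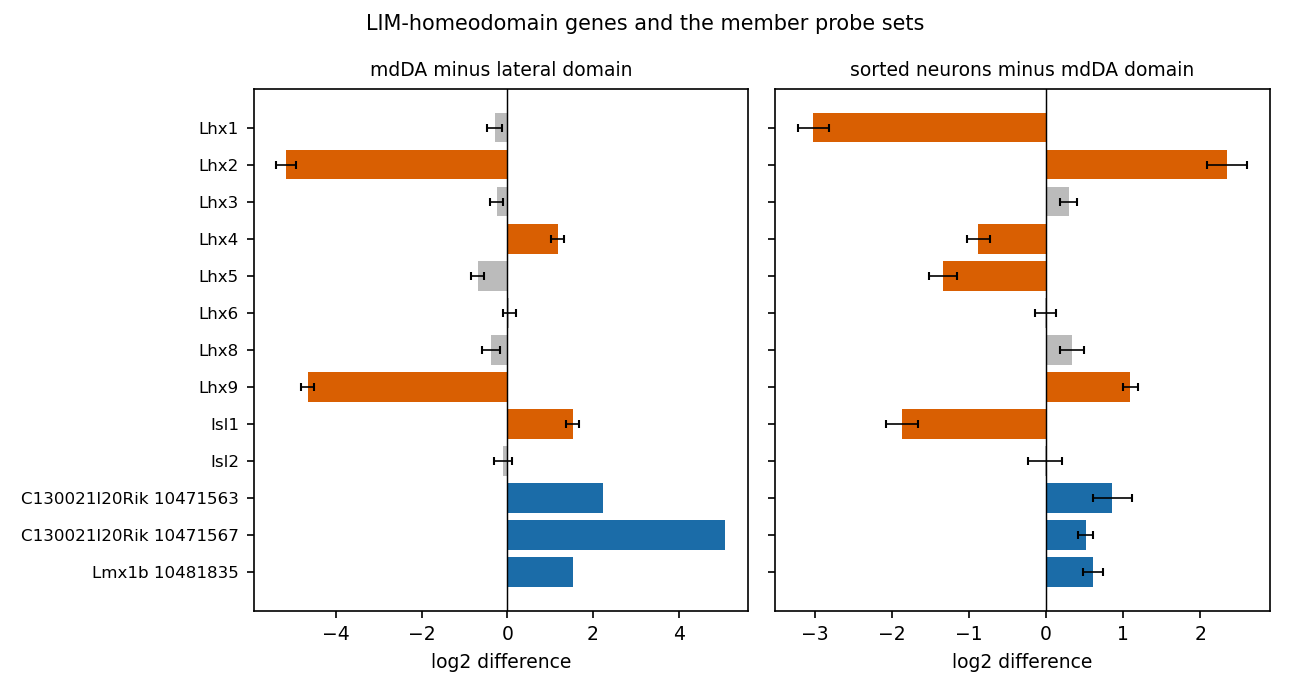
Log2 difference (x axis) of 10 LIM-homeodomain genes and of the 3 probe sets of Lmx1b and C130021I20Rik, with the mdDA minus lateral domain on the left and sorted neurons minus mdDA domain on the right. Bars are orange for listed genes called at a false discovery rate below 10%, grey for those not called and blue for Lmx1b and C130021I20Rik, and whiskers are SE, omitted where no test was made. Lhx2 and Lhx9 lie at -5.17 and -4.66 on the left, where Lmx1b and C130021I20Rik, chosen on this difference, are above 0.

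Genes of the partner proteins of LIM-homeodomain factors were examined next. Of 10 cofactor and LIM-only genes 0 were higher and 1 was lower in the mdDA domain, with a median difference of -0.08. That gene was Lmo1, whose LIM-only product competes for LDB1, at 4.84 and 4.77 in the mdDA domain and 8.66 and 8.65 in the lateral domain (-3.85, SE 0.15, adjusted p = 0.0224). Ldb1, the obligate partner, differed by 0.0035 (adjusted p = 0.996) and lay between 9.71 and 10.10 on all arrays. Ssbp3, which stabilises LDB1 complexes, differed by -0.25 (adjusted p = 0.596).

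In sorted neurons 4 of the 10 were higher and 1 lower (8.53% and 9.84% over all probe sets), with a median difference of 0.46. Ldb2, the second LDB gene, rose by 2.67 (SE 0.24, adjusted p = 0.00387), from 5.55 and 6.14 to between 7.94 and 8.97. Lmo4 was higher by 0.82 (adjusted p = 0.0558), Lmo3 by 0.65 (adjusted p = 0.0573) and Lmo2 lower, at -0.56 (adjusted p = 0.0804). The calls of Lmo4, Lmo3 and Lmo2 ended under repeated quantile normalization and without mdDA replicate 2, and that of Ldb2 did not. The call of Lmo3 also ended without either E13.5 array, that of Lmo4 without mdDA replicate 1, and that of Lmo2 without any single array other than E13.5 replicate 1, with the replicate block and with median centring.

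Genes that act upstream or downstream of the LMX1 factors in the floor plate were mostly higher in the mdDA domain, as Lmx1b was. Of 15 measured genes 8 were higher and 2 lower, with a median difference of 1.10. Nr4a2, a nuclear receptor needed for the dopaminergic phenotype, differed by 3.71, the forkhead genes Foxa1 and Foxa2 by 3.55 and 3.44, and En1 by 3.42 (adjusted p = 0.0224 for each). Leaving out either mdDA array ended these 4 calls and left 0 of the 15 genes called higher, and the other 4 higher calls (Corin, Msx1, Neurog2 and Rspo2) also ended without either lateral array. The 2 lower genes, named after their values were seen, were Lef1 and Otx2. Lef1, a nuclear effector of WNT signaling, read 5.75 and 5.79 on the mdDA arrays and 8.11 on each lateral array, which is a difference of -2.33 (adjusted p = 0.0326). Otx2, a fore- and midbrain factor, differed by -1.62 (adjusted p = 0.0623). The call of Lef1 ended without either mdDA array and that of Otx2 without any dissected array. Wnt1 itself lay between 3.40 and 3.88 on all 8 arrays, below every array's median. No detection level was set, so these values do not show that Wnt1 was absent. The study describes Wnt1 transcripts in the lateral floor plate of the midbrain at E12.5 by in situ hybridization.

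In sorted neurons, where Lmx1b was higher, several of these genes were lower. Both comparisons use the same mdDA arrays, so opposite directions in them are a description only. Of the 15 genes 1 was higher and 6 were lower than in the mdDA domain (8.53% and 9.84% over all probe sets). Their median difference was -0.05. Corin, a floor plate surface protease, fell by 1.97 (SE 0.13, adjusted p = 0.00169), from 6.24 and 5.91 to between 4.02 and 4.18. Neurog2, the proneural factor of mdDA progenitors, fell by 1.49 (SE 0.11, adjusted p = 0.00214). Msx1, which LMX1A activates, fell by 1.02 (adjusted p = 0.0117) and Msx2 by 1.00 (adjusted p = 0.0296). The call of Msx2 ended without mdDA replicate 2. The gene that was higher was Foxa1, by 0.70 (adjusted p = 0.0514), a call that ended under repeated quantile normalization and without E13.5 replicate 1 or either mdDA array. Between the stages none of the 15 was called, with a median difference of -0.22.

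**Figure D4:**
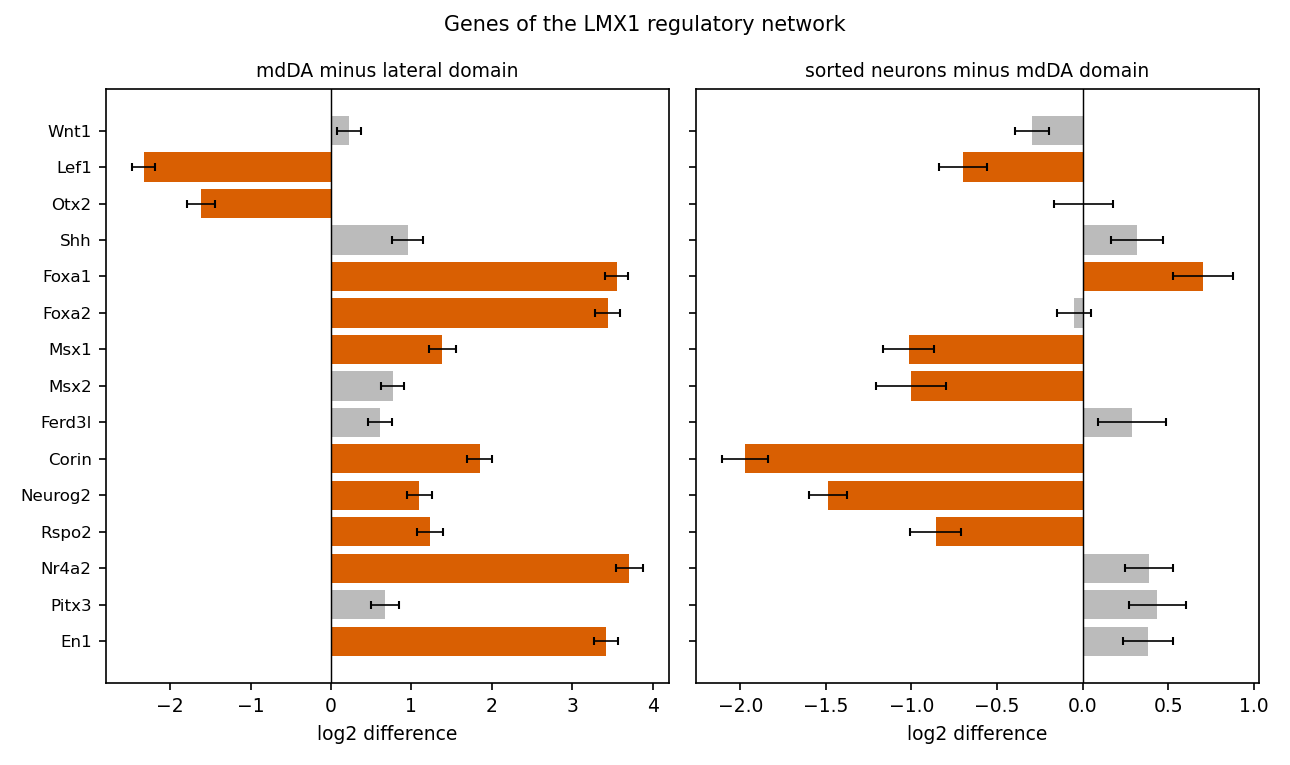
Log2 difference (x axis) of 15 genes of the LMX1 regulatory network, mdDA minus lateral domain on the left and sorted neurons minus mdDA domain on the right. Bars are orange where called at a false discovery rate below 10% and grey otherwise, and whiskers are SE. Corin, Neurog2 and Msx1 are above 0 on the left and below 0 on the right, and both panels use the same mdDA arrays.

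Genes on either side of the Lmx1b and C130021I20Rik locus had smaller differences between the domains. Lmx1b and C130021I20Rik were chosen on this difference, so that order was largely set by the choice and is a description only. Of the 3 nearest measured genes on each side, 0 of 6 were called between the domains. Garnl3 was 0.84 higher in the mdDA domain (SE 0.15, adjusted p = 0.122), and was called under 4 of 8 other settings, among them the fit without the replicate block. The other 5 (Zbtb43, Zbtb34, Mvb12b, Pbx3 and Mapkap1) differed by between -0.19 and 0.18. In sorted neurons 1 of the 6 was called, the endosomal sorting gene Mvb12b, higher by 0.71 (SE 0.11, adjusted p = 0.0130). Over all probe sets 8.53% were called higher and 9.84% lower in this comparison, so nothing is read from 1 call of 6. Zbtb43 and Mvb12b, the nearest on each side, lay 92.4 and 84.3 kb from the locus. Around Lmx1a, which was not analysed here, Nuf2 was lower (-1.17, adjusted p = 0.0899) and Rgs4 higher (1.31, adjusted p = 0.0733) in the mdDA domain, and the other 4 of 6 neighbours (Rxrg, Lrrc52, Mgst3 and Rgs5) were not called. Leaving out any dissected array ended both calls, while Mgst3 (0.81, adjusted p = 0.126) was called under 5 of 8 other settings. In sorted neurons Rgs5 (-1.21, adjusted p = 0.0137), Nuf2 (-0.71, adjusted p = 0.0804) and Rgs4 (0.56, adjusted p = 0.0613) were called against the mdDA domain, and the calls of Nuf2 and Rgs4 ended without either mdDA array or either E13.5 array. The call of Nuf2 also ended without E14.5 replicate 2 and under both other scalings.

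**Figure D5:**
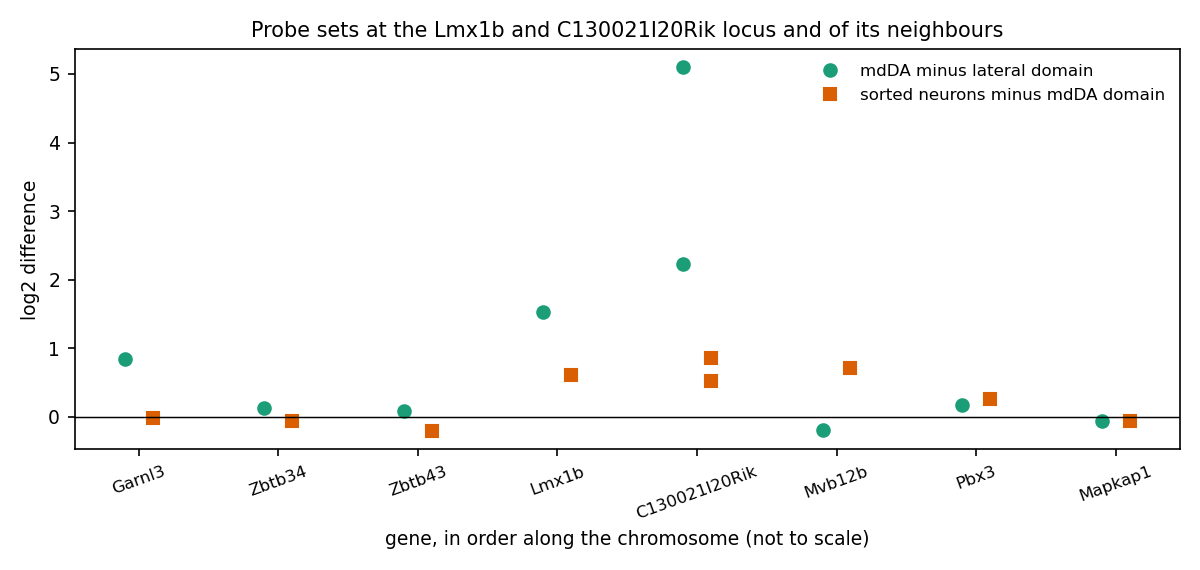
Log2 difference (y axis) of each probe set at the Lmx1b and C130021I20Rik locus and of the 3 nearest measured genes on each side, in chromosomal order (x axis, not to scale). Circles are mdDA minus lateral domain and squares sorted neurons minus mdDA domain. The circles of C130021I20Rik reach 5.10 and 2.24 and that of Lmx1b 1.53, with the 6 neighbours between -0.19 and 0.84.

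Over the 8 arrays the 3 probe sets varied together, given here as a description since the arrays of a group share their RNA and the lateral arrays stand apart. Pearson's r was 0.97 between Lmx1b and probe set 10471567, 0.98 between Lmx1b and probe set 10471563, and 0.96 between the probe sets of C130021I20Rik. Over the 6 arrays without the lateral domain these values were 0.81, 0.94 and 0.92.

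Likeness over the 8 arrays was taken among 2668 probe sets with 1 gene symbol and group means spanning at least 1 on the log2 scale. The lateral arrays stand apart and entered the choice of Lmx1b and C130021I20Rik. Likeness to other genes low in the lateral domain was therefore largely set by the choice. The lateral arrays of probe set 10471563 read 5.29 and 4.32, and this spread enters its list. For C130021I20Rik, the most alike genes included midbrain transcription factors with probe set 10471567 but not with probe set 10471563. For probe set 10471567 they were Chl1 (r = 0.998), a neural adhesion gene, then En2, Nr4a2, En1 and Ppfia2. For probe set 10471563 they were Klhl1 (r = 0.995), Gria3, Asb4, Negr1 and Marchf4. For Lmx1b they were Sez6l2 (r = 0.996), Tmem130, Ptpru, Ntn1 and Cadm3. No gene appeared in more than 1 of these lists of 5. Nr4a2 had mean levels of 10.13, 6.42, 10.55 and 10.48 in the mdDA domain, lateral domain, E13.5 and E14.5 neurons, the same order of groups as probe set 10471567.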

How the data were processed

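For 8 Affymetrix arrays (4 groups, 2 arrays each) the authors deposited gene-level log2 values. They come from RMA (sketch-quantile) run in Affymetrix Expression Console 1.2 and were not normalized again. RMA corrects background, equalises arrays and summarises probes, which compresses differences of dim probe sets. Array medians were 4.57 to 4.60 for dissected and 4.39 for sorted samples, and r between the arrays of a group was 0.966 to 0.983. Precision is limited by the number of arrays. Names came from the platform annotation where it gave 1 symbol, and 12146 of 35556 had none. Fev was not matched, and 1 listed gene is not reported here. Of several probe sets of a listed gene the one with the highest mean was used.

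The domains were compared with limma 3.58.1 in R 4.3.3 on 4 arrays with the replicate number as block, since the study names a paired test. Sorted neurons were compared with the mdDA domain over all 8 arrays, and the stages over 4 arrays, both without a block. P-values were adjusted (Benjamini-Hochberg) over all probe sets, with calls at a false discovery rate below 10%. Deviations of same-numbered arrays from their group means correlated at -0.04 to 0.01, so the numbers do not visibly pair the arrays.

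The members and gene lists were chosen with earlier results of these data known. Named genes are the members, per list and comparison up to 4 called genes of largest difference (or, with fewer than 2 called, the 2 of highest level), the 5 most alike genes per probe set and the 3 nearest measured genes per side. Others are said to have been named after their values were seen.

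The tests were run on simulated data with 200 of 35556 probe sets changed, in the same pass as the real data. In the comparison of the domains 93% of changes of 1 (log2) were recovered and 86 of 279 calls were false, above the nominal 10%. The sorted comparison recovered 60% with 9 false among 161. The stage comparison recovered 16% of changes of 1 and 89% of changes of 2, with 26 false among 131, also above the nominal 10%. With 2000 probe sets changed, 366 of 2349 calls were false between the domains. For the sorted comparison it was 205 of 2093, and for the stages 175 of 1895. Sequences and figures were handled in Python 3.11.15 with numpy 2.4.6, pandas 2.3.3 and matplotlib 3.10.9.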

Additional observations from a re-analysis of the deposited data

How the results depend on the processing

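The differences of Lmx1b and C130021I20Rik kept their direction under every alternative except one, the E14.5 minus E13.5 difference of Lmx1b, which ranged from -0.33 to 0.034 with an array left out and was above 0 without E14.5 replicate 1. Repeated quantile normalization changed the mdDA minus lateral difference of probe set 10471567 to 5.31 and of Lmx1b to 1.62. For sorted neurons against the mdDA domain, quantile normalization gave 0.67 for probe set 10471563 and 0.41 for Lmx1b, neither called, and probe set 10471563 (0.86) was not called with the replicate number as a block (the paired form of this fit) or at a false discovery rate below 5%. With single arrays left out it ranged from 0.80 to 0.92, probe set 10471567 from 0.48 to 0.55 and Lmx1b from 0.52 to 0.71. The block changed no other call of these genes. Where a domain was left with 1 array, that array was assumed to vary like the others.

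Counts over all probe sets depended more on the settings. Between the domains, 829 were higher without the replicate block, 863 among brighter probe sets, 937 with trend and robust options, 1342 with 1-symbol probe sets and 130 at 5%, and 4 to 96 with an array left out. Lower were 605, 709 (trend and robust), 1160 (1 symbol), 97 (5%) and 11 to 74. Of LIM-homeodomain genes 1 was higher among brighter probe sets, 0 at 5% and 0 with any array left out. In sorted neurons 5580 were higher and 1782 lower with median centring, 1970 and 1965 at 5%, and 949 to 3193 and 1088 to 3312 with an array left out, and 2190 were lower with 1-symbol probe sets. Between the stages all 8 arrays gave 9 higher and 11 lower. The cause was not tested.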
